A study of Mus musculus with 4 samples.

Results

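In mouse intestine, 9 long noncoding RNA genes were examined for binding of SHP (small heterodimer partner, gene Nr0b2): 7 Gas5- and Snhg-type genes, which host small nucleolar RNAs (snoRNAs), and 2 genes of abundant nuclear RNAs, Malat1 and Neat1. They were chosen by name, with earlier results of these data known. All 9 of 9 were found among 49943 RefSeq genes (autosomes, X and Y), 12727 of them long noncoding. The wild-type group was C57BL/6 mice and the control group was SHP-knockout (SHP-KO) mice, both aged 8 to 12 weeks, fasted overnight for 12 h and given chow for 4 h. Chromatin of jejunum and ileum was precipitated with an anti-SHP antibody and sequenced (ChIP-seq), in 3 sets with 3 mice pooled in each. The deposited data were 1 peak list per genotype, with 5775 peaks in wild type and 7 in SHP-KO. Replicates could not be compared, values carry no error between sets, and read depth was unknown. The whole gut wall was used, so the cell type behind a peak cannot be told from these lists.

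SHP is an orphan nuclear receptor without a DNA-binding domain, which reaches chromatin through other transcription factors. Small nucleolar RNAs guide ribose methylation (box C/D type) and pseudouridylation (box H/ACA type) of ribosomal and other RNAs. In mammals most of them are cut out of the introns of a host gene, and the spliced host RNA is often short-lived because it is open to nonsense-mediated decay. Many snoRNA hosts, like ribosomal protein genes, begin transcription within a stretch of C and T, called a terminal oligopyrimidine tract. Malat1 RNA accumulates in nuclear speckles, which store splicing factors, and Neat1 RNA is the scaffold of paraspeckles.

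The start regions of the members are shown first because SHP peaks covered the listed start in 5 of them. The RefSeq promoter table (GRCm38.p6, the coordinates of mm10) held 7 of the 9 genes with 8 start sites. Snhg6 and Neat1 had no entry. Each sequence is 110 bases on the sense strand, 60 before the start site and 50 from it onward. Capitals mark the longest unbroken run of C and T within 30 bases of the start, and any TATAAA on either strand. Where runs tie, the first is marked. Of the genes printed here, the first 5 had an SHP peak and the last 2 had none.
Snhg8, chr3:123508287-123508396, minus strand: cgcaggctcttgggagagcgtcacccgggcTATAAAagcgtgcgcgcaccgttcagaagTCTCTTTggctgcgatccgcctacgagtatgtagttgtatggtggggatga
Snhg12, chr4:132308618-132308727, plus strand: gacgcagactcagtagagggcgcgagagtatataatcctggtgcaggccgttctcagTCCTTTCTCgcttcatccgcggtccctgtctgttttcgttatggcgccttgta
Snhg1, chr19:8723427-8723536, plus strand: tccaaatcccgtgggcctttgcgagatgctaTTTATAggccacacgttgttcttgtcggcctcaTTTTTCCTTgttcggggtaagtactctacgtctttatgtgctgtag
Snhg3, chr4:132353637-132353746, minus strand: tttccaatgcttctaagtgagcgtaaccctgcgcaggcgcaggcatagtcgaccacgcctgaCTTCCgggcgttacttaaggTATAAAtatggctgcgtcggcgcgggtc
Malat1, chr19:5802623-5802732, minus strand: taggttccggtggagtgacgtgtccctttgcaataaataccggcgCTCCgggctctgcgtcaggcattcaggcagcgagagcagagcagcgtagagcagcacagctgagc
Gas5, second start, chr1:161035106-161035215, plus strand: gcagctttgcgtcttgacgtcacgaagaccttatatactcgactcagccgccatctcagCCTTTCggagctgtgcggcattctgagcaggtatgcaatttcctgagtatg
Snhg5, chr9:88522848-88522957, minus strand: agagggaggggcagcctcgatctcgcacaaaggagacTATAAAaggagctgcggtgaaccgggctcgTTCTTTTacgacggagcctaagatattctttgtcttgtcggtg

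SHP occupied 7 of the 9 genes in wild-type intestine. A gene was counted as occupied when a peak summit lay no more than 5 kb from either of its ends. Occupied were the snoRNA hosts Snhg1, Snhg3, Snhg6, Snhg8 and Snhg12 and both nuclear RNA genes, and unoccupied were Gas5 and Snhg5. By the same rule 9.61% of all long noncoding genes, 26.4% of protein-coding genes and 15.1% of all RefSeq genes were occupied. For long noncoding genes with a curated transcript the share was also 15.1%. With a limit of 1 kb the 7 genes were again occupied, against 5.69% of long noncoding and 20.7% of protein-coding genes. Because the members were chosen with earlier results of these data known, the comparison with these shares is a description and no test. The members were also not matched to other genes on expression, which is not measured in these files. The effect of expression on these shares was not tested.

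Among the snoRNA hosts, the peaks sat at one end of the gene, with summits between 2 and 156 bp from it. Snhg6 (chromosome 1, 9942025 to 9944118) holds Snord87, a box C/D snoRNA. Its peak spanned 9943698 to 9944244, a width of 547 bp, with the summit 64 bp inside the gene. The enrichment value, the signal that the authors deposited for each peak on a scale not stated, was 8.65. That value ranked 71 among the 5775 wild-type peaks, whose median was 5.65 and whose middle values (interquartile range) ran from 4.93 to 6.46. Snhg6 therefore had the highest value of the 9 genes, with a −log10 p of 23.8.

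Snhg12 (chromosome 4, 132308678 to 132311024) is the host of Snora16a, Snora44, Snora61 and Snord99. Its peak of 563 bp (132308500 to 132309062) had its summit 153 bp downstream of the start site, inside the gene and 634 bp from the nearest snoRNA gene, Snora16a. The enrichment value was 8.0, rank 184, and the −log10 p was 21.9. Snhg8 (chromosome 3, 123507552 to 123508336) is only 785 bp long and holds Snora24, a box H/ACA snoRNA. The summit of its 959 bp peak (123508029 to 123508987) lay 2 bp upstream of the start site, within the printed sequence. Its enrichment value was 7.33, rank 476, and its −log10 p of 24.3 was the highest of the 9 genes. Snhg6, Snhg12 and Snhg8 were thus the members with a value above 6.46, the upper bound of the interquartile range.

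Snhg1 (chromosome 19, 8723487 to 8726326), the U22 host gene, contains 8 annotated snoRNA genes, among them Snord22. Its peak of 883 bp (8722896 to 8723778) had an enrichment value of 6.08 (rank 2107) and a −log10 p of 16.6. The summit lay 128 bp upstream of the Snhg1 start but only 10 bp inside the neighbouring gene Slc3a2, which encodes the heavy chain of the LAT1 amino acid transporter. Slc3a2 is listed on the minus strand, so this is its upstream end, but the nearest Slc3a2 start in the promoter table lay 9462 bp from the summit. The nearest gene end was thus that of Slc3a2, but ends of both genes lay within 1 kb of the summit. Distance alone does not show which gene the summit belongs to. A separate peak with a value of 5.76 lay 9636 bp from Snhg1, inside Slc3a2 and 46 bp from a Slc3a2 start in the promoter table.

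Snhg3 (chromosome 4, 132351933 to 132353686), the U17 host gene, carries Snora73a and Snora73b, snoRNAs that act in ribosomal RNA processing. Its peak was the weakest of the members. It spanned 329 bp (132353419 to 132353747), with the summit 156 bp downstream of the start and an enrichment value of 4.09, rank 5303. Only 8.19% of the wild-type peaks had a value as low or lower, and its −log10 p was 12.7. Snhg3 and Snhg12 lie on chromosome 4 with 40.9 kb between them, and each had its own peak.

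Gas5 and Snhg5 had no summit in reach. The farthest member inside the limit was Snhg3 at 156 bp, and the nearest outside it was Snhg5. Gas5 (chromosome 1, 161034601 to 161038539), named for its accumulation in growth-arrested cells, holds 8 annotated snoRNA genes, as many as Snhg1. The nearest summit to Gas5 was 128 kb away, and no peak lay within 50 kb. Snhg5 (chromosome 9, 88521052 to 88522897), host of U50-type snoRNAs, has 2 annotated snoRNA genes. Its nearest summit was 39.0 kb away, inside Syncrip, an RNA-binding protein gene, at an enrichment value of 5.22. The number of annotated snoRNA genes did not separate occupied from unoccupied hosts. The occupied hosts held from 1 (Snhg6, Snhg8) to 8 (Snhg1) and the unoccupied ones 2 and 8. Because the list was filtered at an irreproducible discovery rate of 0.05, per its name, weaker signal at Gas5 or Snhg5 would not appear in it.

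**Figure D1:**
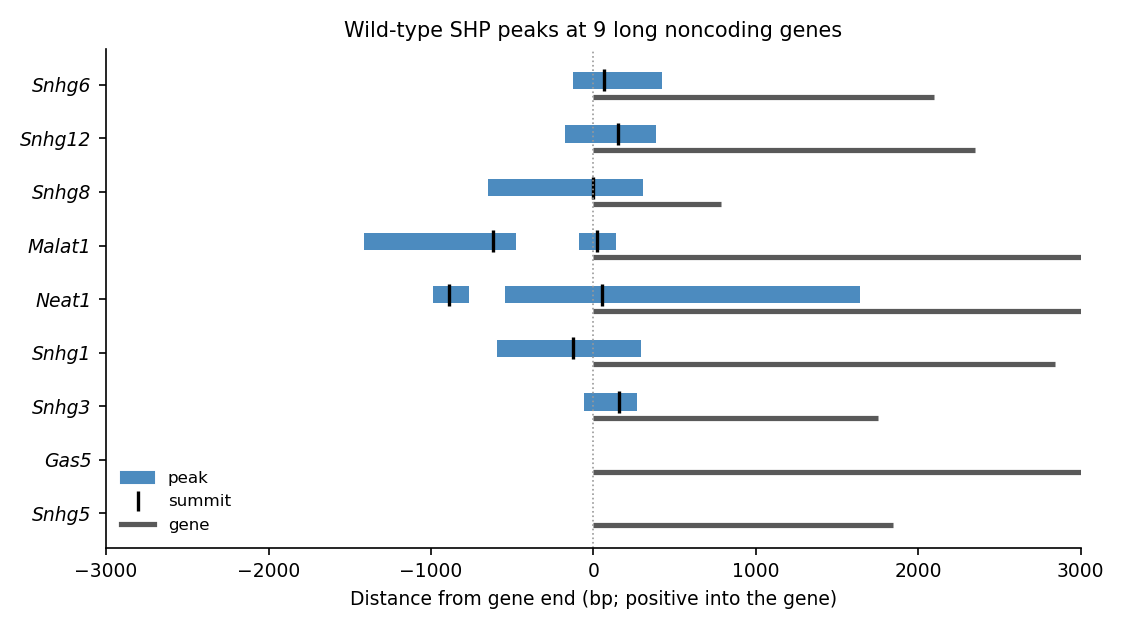
Wild-type SHP peaks (blue bars) and summits (black ticks) around the 9 genes; the x axis is the distance in bp from the gene end nearest the summit, or from the annotated start where there is no peak, positive into the gene, and grey lines are the genes, ending at 3000 bp where they are longer. All 7 occupied genes have a summit within 156 bp of the end, Malat1 and Neat1 have a further peak outside the gene, and Gas5 and Snhg5 have none.

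The nuclear RNA genes Malat1 and Neat1 each had a pair of peaks at one end. They lie on chromosome 19 with 22035 bp between them. At Malat1 (5795690 to 5802672) the first peak, 231 bp wide (5802530 to 5802760), had its summit 20 bp downstream of the start site, within the printed sequence. Its enrichment value was 6.44 (rank 1460) and its −log10 p 21.4. The other Malat1 peak, 938 bp wide (5803146 to 5804083), had its summit 618 bp upstream of the start, with a value of 6.30 and a −log10 p of 18.9. The 2 Malat1 peaks were separated by 385 bases.

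At Neat1 (5824708 to 5845480) a wide peak of 2182 bp (5843842 to 5846023) covered the gene end with the higher coordinate, with its summit 50 bp inside the gene. Its enrichment value of 5.18 was below the list median, and its −log10 p was 14.4. A second peak of 228 bp (5846243 to 5846470) followed after 219 bases, with its summit 889 bp outside the gene, a value of 6.13 and a −log10 p of 15.5. The narrower outer peak therefore had the higher value at Neat1, while at Malat1 the narrower inner peak did. No further summit lay between the genes or within 5 kb of the opposite end of either.

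In all, 9 peaks occupied the 7 genes. Of these, 7 had an enrichment value above the list median, and the medians were 6.44 over the highest peak of each occupied gene and 5.65 over all wild-type peaks. The peaks were mostly narrow. Widths were below the list median of 978 bp in 8 of 9, the exception being the wide Neat1 peak, and their median was 563 bp. Another 6 peaks lay within 50 kb of a member but beyond 5 kb, and 5 of these had their summit no more than 577 bp from a protein-coding gene end (Nxf1, Syncrip, Tcf24, Gmeb1 and Taf12). The other was the one inside Slc3a2. Their values ran from 4.53 (Taf12) to 5.94 (Gmeb1).

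**Figure D2:**
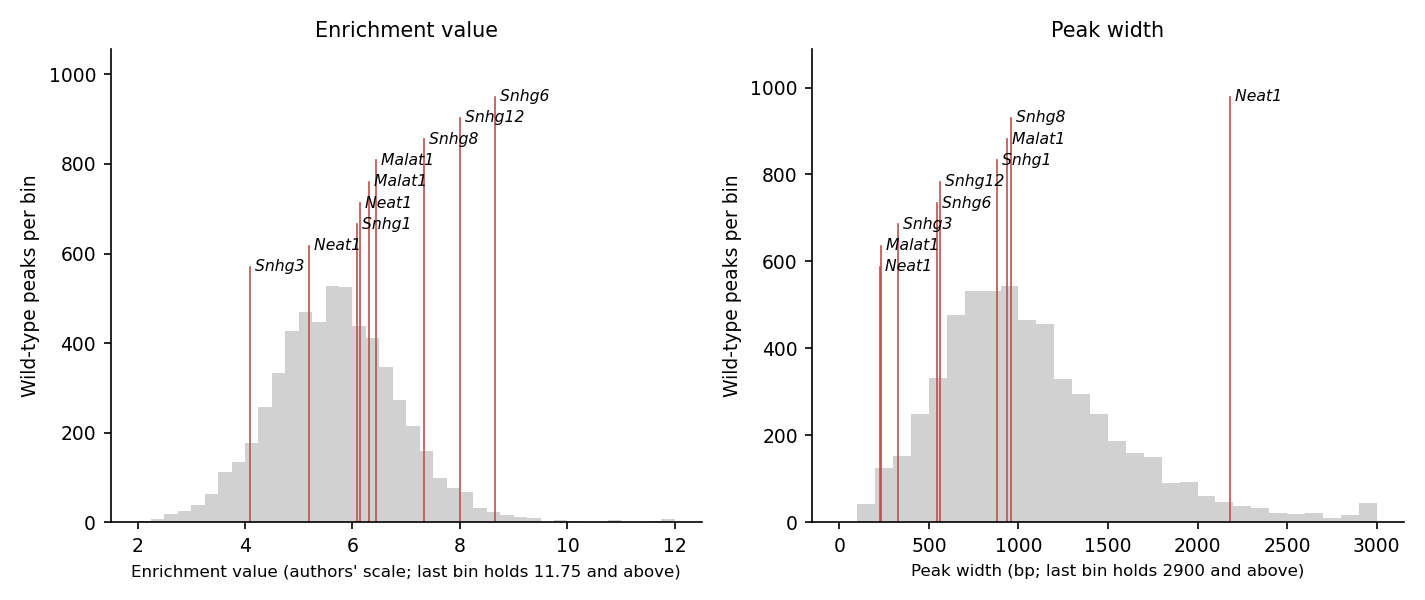
Enrichment value (left) and width in bp (right) of all 5775 wild-type peaks as grey histograms, with red lines for the 9 peaks that occupy members. Snhg6, Snhg12 and Snhg8 stand in the right shoulder by enrichment value, Snhg3 in the left, and 8 of the 9 peaks are narrower than the median of 978 bp.

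The peaks were then set beside the list from SHP-KO mice. None of its 7 peaks lay on chromosome 1, 3, 4 or 19. For Snhg5, the one member on a chromosome with a knockout peak, the nearest was 36.4 Mb away. The lists were filtered differently, by irreproducible discovery rate in wild type and by overlap in SHP-KO, so this absence is not a test of whether the signal depends on SHP.

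Summits near long noncoding genes are often near protein-coding genes too, and this was so for some of the members. Of the 7 occupied genes, 5 had a summit with no protein-coding gene end within 1 kb, namely Snhg3, Snhg8, Snhg12, Malat1 and Neat1. Among all 1223 occupied long noncoding genes, 441 (36.1%) had one. At Snhg6 the nearest protein-coding end was that of Mcmdc2, a gene of meiotic recombination, 448 bp from the summit, and the 2 genes overlap. At Snhg8, Snhg3 and Snhg12 the nearest protein-coding ends were those of Prss12 (1736 bp), Phactr4 (2392 bp) and Trnau1ap (2932 bp). By the strand in the promoter table these are the downstream ends of the 3 genes, so that no start of them was near these summits. With a limit of 5 kb, 2 of the 7 genes (Malat1 and Neat1) had a summit with no protein-coding gene end, against 246 of 1223 (20.1%) of occupied long noncoding genes. When each summit was given only to the gene with the nearest end, 520 long noncoding genes had one. Ordered by enrichment value, Snhg6 was at place 9 of these, Snhg12 at 22, Snhg8 at 43, Malat1 at 156, Neat1 at 198 and Snhg3 at 487.

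Other snoRNA-bearing long noncoding genes were occupied at a share near the background. RefSeq placed at least 1 snoRNA gene inside 108 long noncoding genes, of which 13.9% were occupied. With the members left out, 10 of 101 (9.90%, 95% exact interval 4.85 to 17.5) were occupied, close to the 9.57% of long noncoding genes without a snoRNA gene. Of 372 protein-coding genes with a snoRNA gene inside, 41.9% (36.9 to 47.1) were occupied, against 26.1% (25.5 to 26.7) of those without. Of the 1340 snoRNA genes themselves, 8.58% had a summit in reach. Intervals cover counting error only, and genes that share a summit are not independent.

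**Figure D3:**
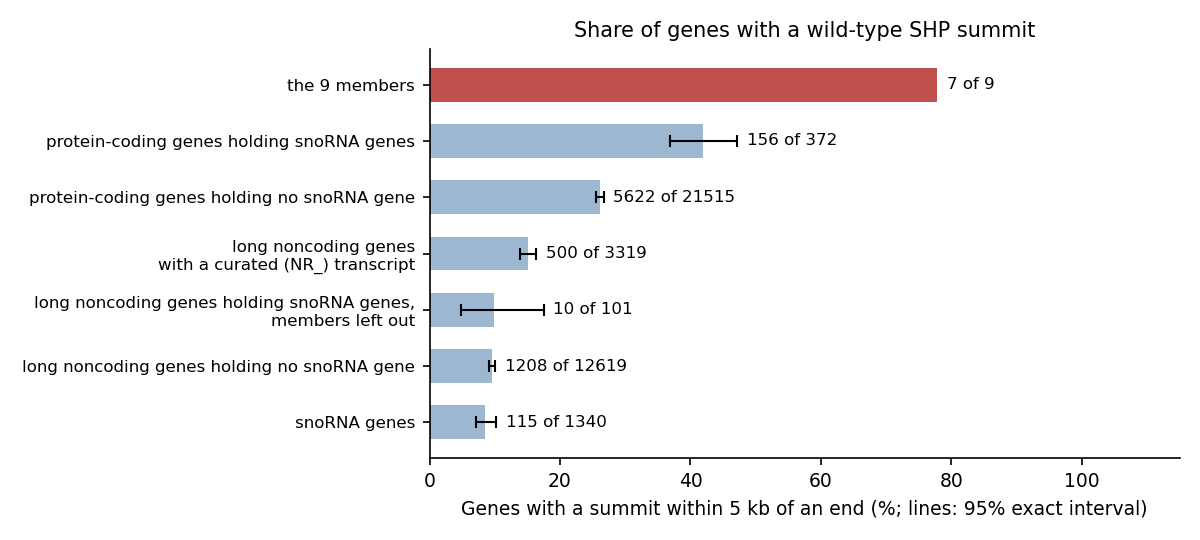
Share of genes (x axis, %) with a wild-type summit no more than 5 kb from an end, by gene class. Lines are 95% exact intervals, and counts stand beside the bars. The members, chosen by name with earlier results of these data known, carry no interval. The bar of the members (7 of 9) is the longest, protein-coding snoRNA hosts (156 of 372) come next, and other snoRNA-bearing long noncoding genes (10 of 101) lie near those without snoRNA genes.

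Of 14 further named snoRNA host RNA genes, 5 (35.7%) were occupied: Snhg10 (6.19), Snhg9 (5.64), Dancr (5.64), Snhg4 (5.54, summit 3849 bp away) and Zfas1 (3.42). By the same rule 9.61% of all long noncoding genes and 15.1% of those with a curated transcript were occupied. Snhg7, Snhg11, Snhg14, Snhg15, Snhg16, Snhg17, Snhg18, Snhg20 and Epb41l4aos had no summit in reach. In this list 12 of 14 genes held an annotated snoRNA gene, and Snhg10 and Snhg20 did not. The 12 are among the snoRNA-bearing long noncoding genes counted before. None of the values in this list reached those of Snhg6, Snhg12 or Snhg8.

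Of 20 other long noncoding genes, listed by name as nuclear or chromatin-bound, 3 (15.0%) were occupied. Where the RNAs of these 20 genes lie in the cell was not measured here. The share was 9.61% for all long noncoding genes and 15.1% for those with a curated transcript. The 3 genes were Hotair (6.10, summit 2573 bp away), an RNA of the Hoxc cluster, Tug1 (4.62) and Dleu2 (4.37). Xist, Kcnq1ot1, Airn, Meg3, Rian, Miat, H19, Pvt1 and Norad, which include X-inactivation and imprinted RNAs, had none.

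Genes whose products work with the members, or which also host snoRNAs, were described in the same way. Of 32 protein-coding snoRNA hosts, 20 (62.5%) were occupied, with a median value of 5.53 over those 20. The share was 26.4% for all protein-coding genes and 41.9% for those with a snoRNA gene inside. The highest values in the list were at Eef2 (7.06), a translation elongation factor, and Nop56 (7.03), a core box C/D protein that is itself a host. Next was Cnbp (5.92, summit 3701 bp away), a zinc-finger protein that binds nucleic acids, which also had a summit within 1 kb. RefSeq annotated a snoRNA gene inside 27 of the 32, and not inside Cnbp. Of 17 snoRNP core and assembly proteins, 5 (29.4%) were occupied, a share near that of protein-coding genes. They were Gar1 (8.10), of the box H/ACA complex, Nop56, Snu13 (6.52) and the methyltransferase Fbl (5.69), of the box C/D complex, and the assembly factor Ruvbl2 (4.96). Dkc1, the pseudouridine synthase, and Nop58 were not occupied.

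Paraspeckle protein genes, whose products assemble on Neat1 RNA, were occupied at 11 of 15 (73.3%, against 26.4% of protein-coding genes). They were led by Hnrnpk (7.54), Ewsr1 (6.52, summit 4446 bp away) and Rbm14 (6.48). A further Ewsr1 summit lay within 1 kb of an end. Sfpq was occupied (5.60), whereas its partner genes Nono and Pspc1 had no summit in reach. Nuclear speckle, Malat1 processing and RNA decay genes were occupied at 9 of 16 (56.2%, against 26.4%). The highest were the splicing factor gene Srsf2 (8.39), the speckle scaffold gene Srrm2 (8.37) and Rpp21 (7.70), a subunit of RNase P, which cuts the end of Malat1. The core decay helicase Upf1 (5.98) was occupied, and Upf2 and Xrn1 were not. These lists were made without regard to expression, and their shares were not tested against other genes.

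**Figure D4:**
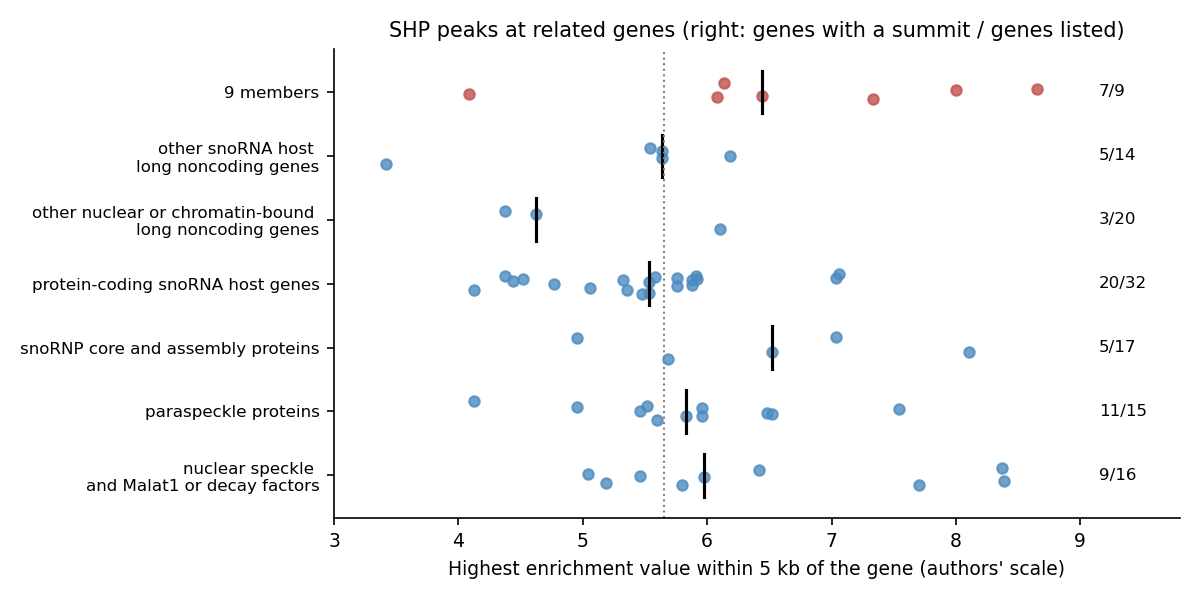
Highest enrichment value (x axis, authors' scale) at each occupied gene of the members (red) and of 6 related lists (blue), with black lines at the medians of the occupied genes, a dotted line at the median of all wild-type peaks, 5.65, and occupied over listed genes at the right. The members run from 4.09 to 8.65 and the further snoRNA host RNAs from 3.42 to 6.19.

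The start regions were next described by their bases. The windows for counting were 300 bases long, 250 before and 50 from the start site. GC content ran from 46.0% (Snhg3) and 47.0% (Malat1) to 62.0% (Snhg8, Snhg5 and the second Gas5 start) and 73.7% (the first Gas5 start), with a median of 52.7% over 32851 promoters. The ratio of observed to expected CpG was above the median of all promoters in all 8 windows, from 0.604 (Malat1) to 1.26 (Snhg5), against 0.384. It did not separate the occupied genes from Gas5 (0.904 and 0.672) and Snhg5.

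A run of C and T passed through the start base itself in Snhg12 (9 bases), Snhg8 (7 bases) and the second Gas5 start (6 bases), as printed above in TCCTTTCTC, TCTCTTT and CCTTTC. Runs through the start of at least these lengths were found in 3.03%, 5.28% and 7.25% of all promoters. Shorter runs crossed the start base in Snhg1 (4 bases, a length reached by 14.0% of promoters) and Malat1 (2 bases, 24.4%), and none did in Snhg3, Snhg5 or the first Gas5 start. In Snhg1 the longest run, TTTTTCCTT, began at base 5 counted from the start as 1, and in Snhg5 TTCTTTT began at base 8. Malat1, which is no snoRNA host, had no run longer than 4 bases nearby, where CTCC and CTCT tied. Among occupied genes the run through the start thus ranged from 0 bases (Snhg3) to 9 (Snhg12), and among unoccupied ones from 0 (Snhg5 and the first Gas5 start) to 6 (the second Gas5 start).

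Of 15 motifs searched on both strands, 10 had no match in any of the 8 windows. These were TCAAGGTCA and the CAAGGTCA it contains (NR5A2, a nuclear receptor partner of SHP), the FXR-type inverted repeat GGTCANTGA, CAAAGTCCA (HNF4A), the E-box CACGTG and the longer TCACGTGA that contains it (TFEB), TGANTCA (AP-1), GCGCATGCG (NRF1), TCTCGCGAG (ZBTB33) and AAGATGGCG (YY1). They were found in 0.423%, 1.56%, 0.840%, 0.475%, 7.15%, 0.974%, 7.81%, 1.75%, 0.676% and 1.4% of all promoters, in that order. TATAAA was in 4 of the 8 windows. It lay 30 bases before the start in Snhg8, 29 in Snhg1 and 23 in Snhg5, and after the start in Snhg3. In Snhg1 the match was on the opposite strand, printed above as TTTATA. On either strand, TATAAA was in 13.6% of all promoters. GGGCGG, the SP motif, was in 5 windows, of Snhg8, Snhg1, Snhg5 and both Gas5 starts (35.7% of promoters). CCAAT was in the windows of Snhg8, Snhg3 and Snhg5 (37.4%), CCGGAAG (ETS) in that of Snhg3 (8.86%) and TGACGTCA (CRE) in that of the second Gas5 start (1.79%). A match is a string of letters in these windows and not a measured site.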

How the data were processed

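Per the submitters' processing notes, CASAVA 1.4 and BWA were used with the mouse build mm10. Peak caller, use of the input and pooling of sets were not given in the sources used here. The authors deposited 10-column narrowPeak lists without a header. Used from them were position, summit, the deposited signal (seventh column, called enrichment value), and the deposited −log10 p. The deposited score was not used. Input samples were not analysed here. Positions were made 1-based. Gene ends came from the RefSeq table of GRCm38.p6, and strand and starts from its promoter table, where entries exist. Each distance is from a summit to the nearer gene end. The rule for named genes took all members, the genes next to their summits, and in each related list the 3 highest occupied genes, or all of them where 5 or fewer were occupied. Further genes were named after their values were seen: Sfpq, Upf1, the unoccupied genes and those at peaks beyond 5 kb. Members and lists were chosen with earlier results of these data known. No test was run, since there is 1 list per genotype. Intervals are 95% exact (Clopper-Pearson) from SciPy 1.17.1. The distance code was tested on simulated data. Depth per sample was unknown.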

Additional observations from a re-analysis of the deposited data

How the results depend on the processing

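The 7 genes stayed occupied with a limit of 1 kb or 10 kb and with any base of the peak in reach. The count was 6 when weaker peaks, with a −log10 p under the median, were left out (Snhg3 was lost), 6 with each summit given to its nearest gene end (Snhg1 was lost to Slc3a2), and 5 with annotated starts only, which 7 members have (not Snhg6 or Neat1). With peaks at or above the 75th percentile of the enrichment value it was 3, namely Snhg6, Snhg8 and Snhg12. That limit also left 0 of the further snoRNA host RNAs and 0 of the other RNAs listed as nuclear. It left 2 of the protein-coding hosts, and 3 each of the snoRNP, paraspeckle and speckle lists. It removes peaks by construction. With nearest ends only, 3 further host RNAs were left, and without the weaker peaks 0 of the other RNAs listed as nuclear. Shares over all long noncoding and all protein-coding genes were counted only at 5 kb and 1 kb. Counts under the other settings therefore do not show whether members kept occupancy more often than other genes. Highest values per gene did not change with 1 kb, 10 kb or, for the 5 occupied genes with a listed start, starts only. Ranked by −log10 p, the members stood at 209 (Snhg8), 246 (Snhg6), 404 (Snhg12), 472 (Malat1), 1806 (Snhg1), 2445 (Neat1) and 4271 (Snhg3). No paired analysis was possible because each group has 1 list. With no read depth, an absent peak is not shown to be absent binding.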
